A study of Homo sapiens with 8 samples.

Results

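The cytosolic ribosomal protein genes described here are the human genes whose products make up the large (60S) and small (40S) subunits of the ribosome that translates nuclear mRNAs. They were taken as the protein-coding rows of the count matrix with a symbol of RPL or RPS and a number, with an optional letter or L suffix, together with RPSA, RPLP0, RPLP1 and RPLP2. The RPS6K kinases, the mitochondrial MRPL and MRPS genes, RPS4Y1 and RPS4Y2 were left out. This gave 85 of 60676 genes, of which 46 encode core 60S proteins, 31 core 40S proteins and 8 paralogs of a core protein (RPL3L, RPL7L1, RPL10L, RPL22L1, RPL26L1, RPL36AL, RPL39L and RPS27L).

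RNA-seq was done on 8 libraries from IGR-N91 cells, a line established from a human neuroblastoma, whose cells had formed aggregates in hanging drops. They were collected after 20 h by the sample labels and after 24 h by the description of the series. The groups, of 2 libraries each, are control medium, in which no tissue had been cultured, medium conditioned by sympathetic ganglia of E8 chick embryos (E8-cSGcm), medium conditioned by dorsal root ganglia of E8 chick embryos (E8-cDRGcm) and medium conditioned by sympathetic ganglia of E15.5 mouse embryos (E15.5-mSGcm). All 4 groups share the cell line and the hanging drop format, and the mouse medium differs from the chick sympathetic medium in species and in embryonic day, which cannot be told apart, though the study took these days as close to equivalent stages. The labels do not say whether the 2 libraries of a group came from separate cultures, and p-values then measure only the spread between these libraries, which may be technical.

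Apart from the proteins of the acidic stalk, ribosomal proteins are needed in equal numbers, and their mRNAs are among the most translated of a growing cell. Most of them carry a 5′ terminal oligopyrimidine (TOP) tract, a C at the cap followed by a run of C and T, through which mTOR and LARP1 adjust their translation and stability together. Their transcription is fed by MYC family proteins, which makes ribosome production a familiar theme in neuroblastoma.

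The TOP tract could be read from the annotated starts of 68 of the 85 genes in the RefSeq promoter windows (GRCh38.p14, 300 bases each). A C at the annotated start followed by at least 4 C or T bases, read on the strand of the gene only, was found at 47 of the 68 genes (69.1%), against 5.14% of the 27305 genes with a window. It was found at 46 of the 62 core genes (74.2%) and at 1 of the 6 paralogs with a window (16.7%). By comparison it stood at 8.7% of mitochondrial ribosomal protein genes and 8.51% of ribosome biogenesis genes. The starts of 5 core genes and 3 paralogs, chosen from the genes described below, are shown over 30 bases. These begin 10 bases before the first transcribed base of the annotation. Capitals mark the longest run of C and T that begins with C, where that run has at least 5 bases.
RPLP0: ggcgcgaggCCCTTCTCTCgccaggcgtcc
RPL12: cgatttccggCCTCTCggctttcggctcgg
RPL41: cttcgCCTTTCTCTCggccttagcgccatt
RPS27: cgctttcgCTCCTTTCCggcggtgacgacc
RPL22: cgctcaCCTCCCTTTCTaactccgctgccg
RPL26L1: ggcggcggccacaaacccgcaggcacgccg
RPL7L1: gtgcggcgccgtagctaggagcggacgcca
RPS27L: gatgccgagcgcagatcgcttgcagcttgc
These lie at chr12:120201092-120201121 on the minus strand for RPLP0, chr9:127451387-127451416 minus for RPL12, chr12:56116623-56116652 plus for RPL41, chr1:153990752-153990781 plus for RPS27 and chr1:6199576-6199605 minus for RPL22. The paralog starts lie at chr5:172958870-172958899 plus for RPL26L1, chr6:42879606-42879635 plus for RPL7L1 and chr15:63157458-63157487 minus for RPS27L. The 5 core genes have a pyrimidine run across the start, and the 3 paralogs shown have no run of 5. Of the paralogs not shown, RPL22L1 and RPL36AL, also described below, have runs of 10 and 12 bases across the start. A match is a description of the annotated start, and transcript starts were not measured.

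The libraries held 7930765 to 15060744 counts, with the 2 E15.5-mSGcm libraries the smallest (7930765 and 8937397). In such libraries 3 counts correspond to 0.199 to 0.378 CPM, the count scaled to a common library total. All 8 of the markers of neuroblastoma identity had counts in every library. They summed to 1066 to 1483 CPM, highest in control medium (1483 and 1468 CPM) and lowest in E15.5-mSGcm (1099 and 1066 CPM). HAND2 held much of this sum, with 739.7 and 709.6 CPM in control medium and 525.5 and 514.6 in E15.5-mSGcm. Median log2 fold changes of the 8 markers were -0.44 in E8-cSGcm, -0.88 in E8-cDRGcm and -0.49 in E15.5-mSGcm. In E15.5-mSGcm 6 were called lower (75%, against 20.0% of all genes) and 1 higher (12.5%, against 17.8%). That 1 was DBH, which rose there by 0.47 and fell by 1.96 in E8-cDRGcm. Markers of glia summed to 1.12 to 4.10 CPM, with 3 of 6 at 0 everywhere, those of fibroblasts to 157 to 222 CPM with all 6 detected, and those of endothelium and blood to at most 1.22 CPM, with CDH5 and HBB at 0. The near level fibroblast sum hid changes in E15.5-mSGcm, where 4 of the 6 markers rose, PDGFRA by 3.65, DCN by 2.30, COL1A2 by 2.01 and LUM by 0.93 on the log2 scale, and COL1A1 fell by 1.82. In the chick media COL1A1 rose by 0.46 in each, and LUM rose by 0.27 in E8-cSGcm. In E8-cDRGcm DCN fell by 0.69 and LUM by 0.22. The medians of the 6 fibroblast markers were 0.36 in E8-cSGcm and -0.33 in E8-cDRGcm. Of the glial markers ERBB3 rose by 1.77 in E8-cDRGcm and by 1.72 in E15.5-mSGcm, while SOX10 and FOXD3 were at 0 in all libraries. Transcripts encoded by the mitochondrial genome took 4.65 to 6.22% of the counts in control and chick media and 7.46 and 7.03% in E15.5-mSGcm. Their part in the results below was not tested, nor was that of the markers. Leaving the mitochondrially encoded genes out, an alternative chosen after seeing the data, gave the same numbers of called genes in all 3 comparisons with control.

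As a group the ribosomal protein genes took 2.06 and 1.99% of the counts of the 2 control libraries. The share was 2.19 and 2.30% in E8-cSGcm, 2.07 and 2.18% in E8-cDRGcm and 1.76 and 1.73% in E15.5-mSGcm. Both E8-cSGcm and E8-cDRGcm libraries lay above both control libraries and both E15.5-mSGcm libraries lay below them. The 95% Wilson interval of each share reached at most 0.00915 percentage points to either side, which covers counting error only. The intervals of E8-cDRGcm library 1 (2.063 to 2.078%) and control library 1 (2.056 to 2.072%) overlapped, so this pair could not be told apart at this depth.

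**Figure D1:**
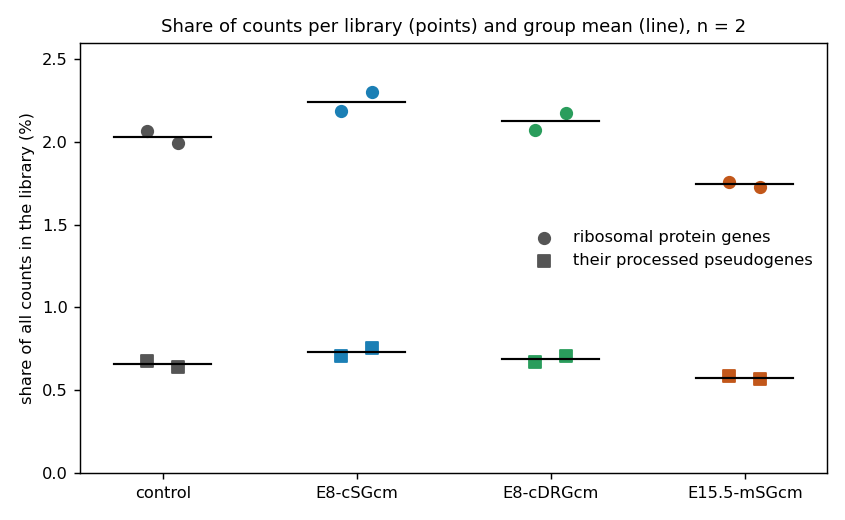
Share of all counts in each library, in percent, held by the 85 ribosomal protein genes (circles) and by their processed pseudogenes (squares), with 2 libraries per medium and the group mean as a line. Both shares are lowest in the 2 E15.5-mSGcm libraries, at 1.76 and 1.73% for the genes, and highest in an E8-cSGcm library, at 2.30%.

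Of the 85 genes, 78 had enough reads to be tested among 16680 genes. Among those not tested, the core genes RPL7A, RPS9, RPS18 and RPS25 were listed at 0 in all 8 libraries, and RPL10L and RPL3L, paralogs known from testis and muscle, had at most 1 read in any library. What set these values to 0 was not tested. Processed pseudogenes of RPS18 held 829 to 2293 reads per library and those of RPL7A 1807 to 4233, while those of RPS25 held at most 5 reads and the pseudogene of RPS9 none.

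Levels of the 72 tested core genes, compared as CPM per kilobase of the canonical transcript, had a median of 166.7 and ran from 2.74 for RPS26 to 1996 for RPLP2. The highest after RPLP2, a protein of the acidic stalk, were RPL35 (1265), RPL30 (1218) and RPL8 (1158 CPM per kilobase). The lowest after RPS26 were RPL36A (6.18), RPS15A (9.39), RPL17 (9.54) and RPL21 (16.0 CPM per kilobase). Among the lowest genes many reads were listed under processed pseudogenes, which are intronless copies of the mRNA in the genome. They held 97.2% of the summed reads of RPL36A and its pseudogenes, 86.0% for RPL17 and 62.9% for RPS26. The whole set of 1566 pseudogene rows, 832 of them with a count, held 32.2 to 33.2 reads per 100 reads of the ribosomal protein genes in all 8 libraries, so reads of a gene and its copies could be divided differently by another counting.

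The comparison of E8-cSGcm with control medium asked which transcripts differ in medium conditioned by chick sympathetic ganglia. Released factors and other changes of a medium in which tissue was cultured cannot be told apart in this design. Of the 78 tested ribosomal protein genes, 40 rose at an adjusted p under 0.05 (edgeR quasi-likelihood test, Benjamini-Hochberg over 16680 genes), or 51.3%, against 16.1% of all tested genes called higher. With edgeR 0 fell, against 15.2% of all genes, with 2 lower at an unadjusted p under 0.05 and 0 lower with DESeq2. The median log2 fold change was 0.14, a rise of 10.2%, with 71 of 78 values above 0, beside a median of 0.01 over all genes. In 60 genes both E8-cSGcm libraries lay above both control libraries, a separation seen in 33.1% of all genes. The changes were small, and RPS27 alone passed a fold change of 1.5, a size reached by 4.73% of all genes. Most ribosomal protein transcripts are abundant, and a small change is called more readily at many reads. The shares of called ribosomal protein genes and of all genes, here and below, were therefore not compared at like read depth. The number higher was 9 without control library 2, 12 without E8-cSGcm library 2 and 25 without control library 1, and DESeq2 called 20.

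In E8-cDRGcm, the medium of the sensory ganglia, 32 of the 78 genes rose (41.0%) and 4 fell (5.13%), against 24.8% and 24.7% of all tested genes. The median log2 fold change was 0.13, a rise of 9.16%, with 65 values above 0, beside 0.01 over all genes. Both E8-cDRGcm libraries lay above both control libraries in 47 genes and below them in 6, where all genes gave 36.8% in either direction. RPS27 alone passed a fold change of 1.5 upward, against 9.81% of all genes. Without control library 2 the number higher was 14, and without E8-cDRGcm library 2 it was 15. The number lower ran from 1 to 6 as single libraries were left out, and was 1 with DESeq2.

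In E15.5-mSGcm the direction was the opposite, with 43 of the 78 genes lower (55.1%) and 3 higher (3.85%), against 20.0% and 17.8% of all tested genes. The median log2 fold change was -0.15, a change of -10.1%, with 68 values below 0, beside -0.02 over all genes. Both E15.5-mSGcm libraries lay below both control libraries in 59 genes, against 35.8% of all genes. RPS26 alone passed a fold change of 1.5 downward, against 7.27% of all genes. The number lower was 25 without control library 1 and 28 without E15.5-mSGcm library 2. The 2 mouse medium libraries are also the shallowest and have the highest share of mitochondrially encoded transcripts, and with all libraries thinned to 7930765 counts 37 genes were called lower. In the same libraries the fibroblast markers had a median log2 fold change of 1.47, and their part in the fall of the ribosomal protein genes was not tested.

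**Figure D2:**
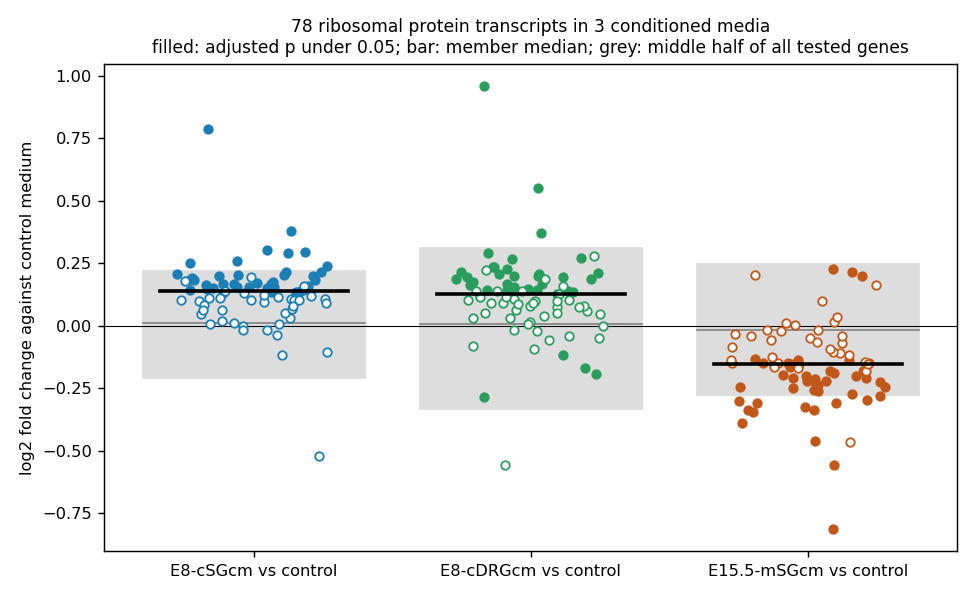
log2 fold change of each of the 78 tested ribosomal protein genes against control medium (y axis) in the 3 conditioned media (x axis), filled where the edgeR adjusted p is under 0.05, with the median as a black bar and the interquartile range of all 16680 tested genes in grey. The medians lie at 0.14, 0.13 and -0.15, inside the grey range in each medium.

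The media were also compared directly. E15.5-mSGcm was lower than E8-cSGcm in 60 of 78 genes (76.9%) and higher in 2, against 25.9% and 23.9% of all genes, with a median log2 difference of -0.32. A fold change of 1.5 was passed by 3 of these, against 12.1% of all genes. It was lower than E8-cDRGcm in 58 genes (74.4%) and higher in 3, against 26.8% and 25.8% of all genes, with a median of -0.30, and 4 genes passed a fold change of 1.5, against 13.1%. Between the chick media 9 genes differed, against 30.2% of all genes, with a median of -0.01. RPL39L was higher in E8-cDRGcm and the other 8, led by RPL26L1 (-0.35), RPL13A (-0.30) and RPL4 (-0.20), were lower. Processed pseudogenes held 62% of the summed reads of RPL13A and its pseudogenes, and these reads are not part of its value here. With single libraries left out, the numbers lower stayed between 52 and 61, 50 and 60, and 2 and 10 in the 3 comparisons.

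The 3 comparisons with control share the control libraries, so the 3 results for a gene are set side by side and not counted as agreement. In that description, 20 of the 78 genes (25.6%) rose in both chick media and fell in the mouse medium, against 3.40% of all tested genes, among them the 3 stalk proteins RPLP0, RPLP1 and RPLP2. A further 8 (10.3%) rose in both chick media without passing in the mouse medium, against 6.34% of all genes, and 12 (15.4%) fell in E15.5-mSGcm and passed in neither chick medium, against 5.73%. In 15 genes (19.2%), among them RPL5 and RPS6, no comparison with control passed, against 32.4% of all genes.

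The calls of single genes often rested on all 8 libraries. With any 1 of the 8 libraries left out, 7 of the 40 genes called in E8-cSGcm, 12 of the 36 in E8-cDRGcm and 21 of the 46 in E15.5-mSGcm passed every time. Of the genes described below, these were RPL12, RPL22L1, RPL26, RPL36AL and RPS27 in E8-cSGcm, and RPLP0, RPL4, RPL11, RPL36, RPL39L, RPL41 and RPS27 in E8-cDRGcm. In E15.5-mSGcm they were RPLP0, RPL4, RPL8, RPL10, RPL10A, RPL11, RPL12 and RPL41. A correction for GC content and length left 28, 35 and 35 of the calls.

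**Figure D3:**
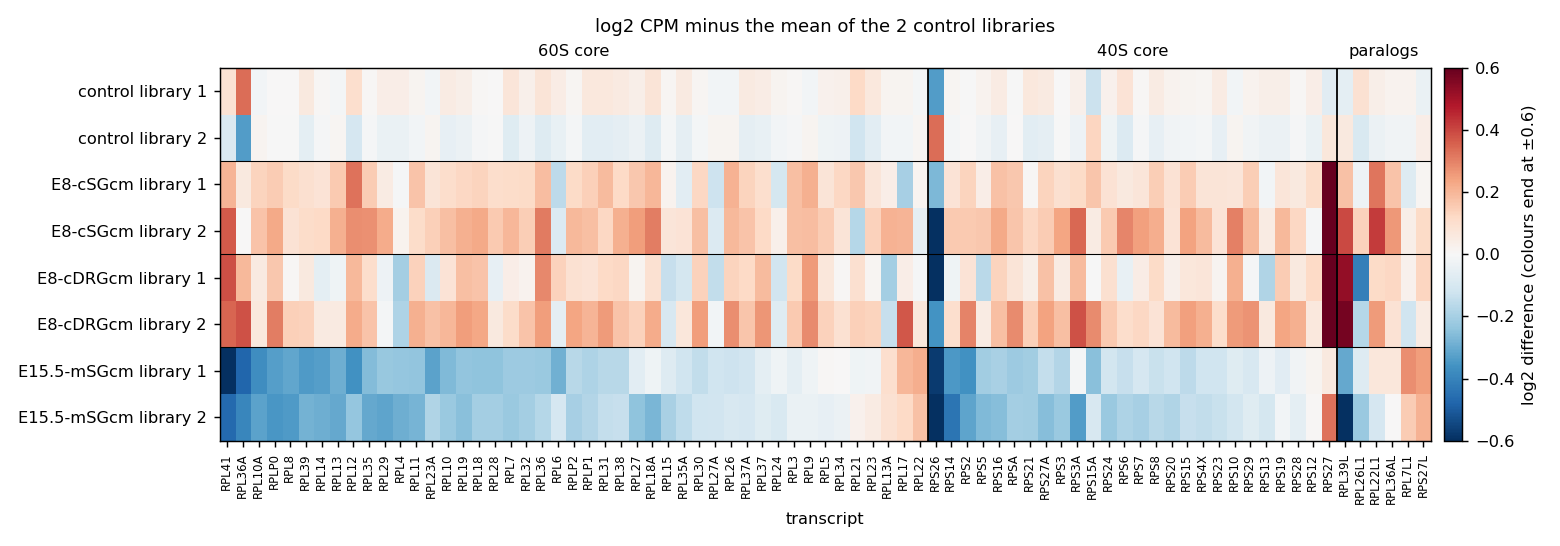
log2 CPM of the tested ribosomal protein genes, apart from 1 that is not drawn (columns, ordered within 60S core, 40S core and paralogs by the mouse medium) in each of the 8 libraries (rows), as the difference from the mean of the 2 control libraries, with colours that end at 0.6 either way. Of the 78 genes, 68 and 72 lie above the control mean in the E8-cSGcm libraries, 58 and 68 in the E8-cDRGcm libraries, and 11 and 10 in the E15.5-mSGcm libraries.

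The median gene of each library, as the log2 difference from the control mean, lay at 0.023 and -0.023 in control medium, 0.11 and 0.17 in E8-cSGcm, 0.076 and 0.17 in E8-cDRGcm and -0.14 and -0.18 in E15.5-mSGcm. No conditioned medium overlapped with control in this measure. The 2 control libraries themselves were not balanced, with 63 genes above their mean in library 1 and 15 in library 2. Large and small subunit genes gave similar values. Among 45 core 60S genes, 24 rose in E8-cSGcm, 19 rose and 3 fell in E8-cDRGcm, and 28 fell and 1 rose in E15.5-mSGcm. Among 27 core 40S genes the numbers were 13 higher, 12 higher, and 14 lower, with medians of 0.14, 0.14 and -0.15 beside 0.14, 0.13 and -0.18 for the 60S genes.

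The stalk proteins RPLP0, RPLP1 and RPLP2 form the arm of the large subunit that recruits and activates the elongation factors. RPLP0 stood at 519 and 516 CPM in control medium, 575 and 606 in E8-cSGcm, 579 and 640 in E8-cDRGcm and 412 and 407 in E15.5-mSGcm (TMM-normalized CPM, as for all levels that follow). The chick and mouse libraries lay on either side of control without overlap. Its log2 fold change was 0.19 ± 0.05 (SE, adjusted p = 0.00298) in E8-cSGcm, 0.24 ± 0.05 (adjusted p = 0.000132) in E8-cDRGcm and -0.34 ± 0.05 (adjusted p = 1.27e-06) in E15.5-mSGcm. Without E8-cSGcm library 2 the value in E8-cSGcm was 0.15 (adjusted p = 0.0545). E15.5-mSGcm against E8-cSGcm gave -0.53 (adjusted p = 4.57e-11). RPLP1 and RPLP2 each rose by 0.16 in E8-cSGcm, by 0.14 and 0.17 in E8-cDRGcm, and each fell by 0.18 in E15.5-mSGcm. RPLP1 came to 0.098 in E8-cSGcm and 0.082 in E8-cDRGcm without control library 2 (adjusted p = 0.323 and 0.344), and to 0.086 in E8-cDRGcm without E8-cDRGcm library 2 (adjusted p = 0.257). RPLP2 came to 0.094 in E8-cDRGcm without E8-cDRGcm library 2 (adjusted p = 0.163), and its call in E8-cSGcm was lost without either control library or without E8-cSGcm library 2. With the correction for GC content and length the value of RPLP2 in E15.5-mSGcm turned to 0.021, with an adjusted p of 0.759.

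RPL12, which sits at the base of the stalk, was measured at 157 and 136 CPM in control medium, 183 and 177 in E8-cSGcm, 167 and 170 in E8-cDRGcm and 113 and 124 in E15.5-mSGcm. No chick library overlapped with control or with the mouse libraries. It rose by 0.30 in E8-cSGcm (adjusted p = 0.000106) and by 0.21 in E8-cDRGcm (adjusted p = 0.00331) and fell by 0.30 in E15.5-mSGcm (adjusted p = 0.000267). Without control library 2 the value in E8-cDRGcm was 0.11 (adjusted p = 0.242). RPL41, the smallest ribosomal protein, had 27.7 and 24.6 CPM in control medium, 30.1 and 33.8 in E8-cSGcm, 34.2 and 33.3 in E8-cDRGcm and 16.4 and 18.9 in E15.5-mSGcm. Its libraries too fell into 3 ranges, with the chick media highest and the mouse medium lowest. RPL41 had the largest difference of any core gene between E15.5-mSGcm and E8-cSGcm, at -0.85 ± 0.11 (adjusted p = 3.43e-08).

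RPL11 and RPL5, which with 5S rRNA bind MDM2 when ribosome assembly is disturbed, are set side by side. RPL11 had 564 and 552 CPM in control medium, 628 and 602 in E8-cSGcm, 613 and 647 in E8-cDRGcm and 473 and 459 in E15.5-mSGcm, with no overlap between control, chick and mouse libraries. It rose by 0.14 and 0.18 in the chick media (adjusted p = 0.0209 and 0.00221) and fell by 0.26 in the mouse medium (adjusted p = 4.47e-05). Its call in E8-cSGcm was lost without either control library, without E8-cSGcm library 1 and with the GC content and length correction (adjusted p = 0.0615). RPL5 gave 0.12, 0.10 and -0.02, none of which passed (adjusted p = 0.0689, 0.0761 and 0.761). RPL26 rose by 0.20 and 0.21 in the chick media, the second becoming 0.13 without E8-cDRGcm library 2 (adjusted p = 0.071), and gave -0.11 in the mouse medium (adjusted p = 0.119). The difference between RPL5 and RPL11 was not tested.

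**Figure D4:**
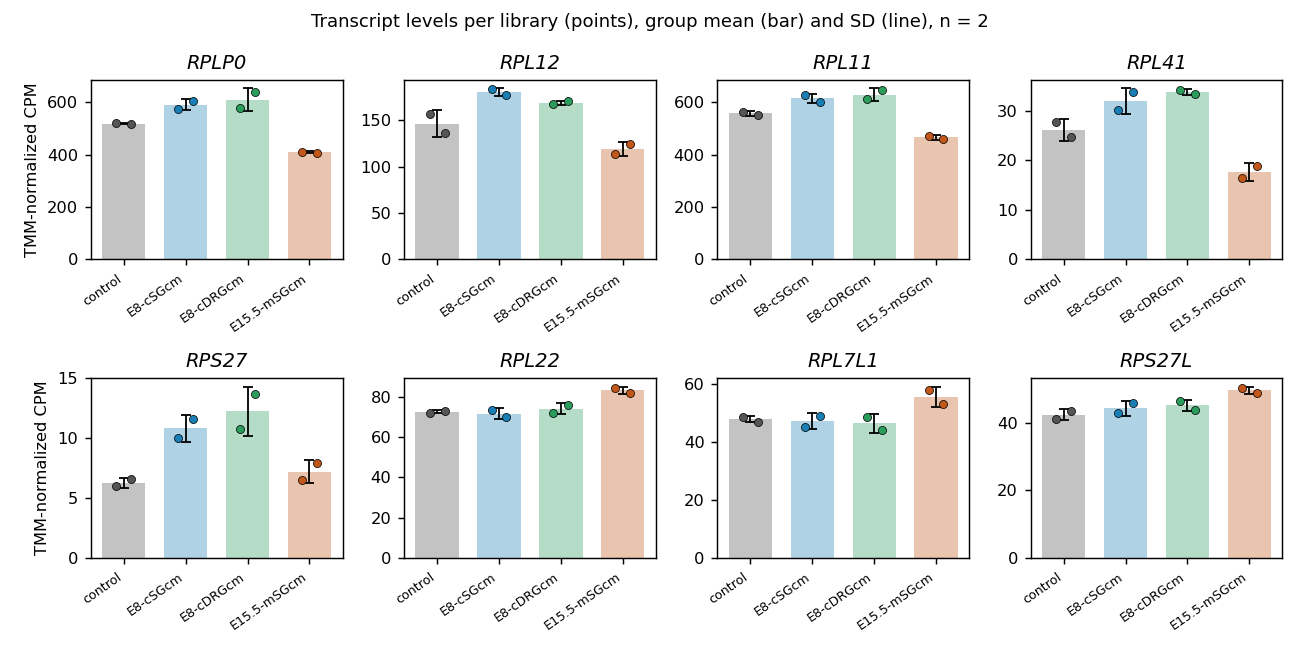
TMM-normalized CPM (y axes, from 0) of 8 ribosomal protein genes in each medium (x axes), with the 2 libraries as points, the group mean as a bar and the SD as a line. RPLP0, RPL12, RPL11 and RPL41 are lowest in E15.5-mSGcm, RPS27 is highest in the chick media, at 10.02 to 13.7 CPM, and RPL22, RPL7L1 and RPS27L are highest in E15.5-mSGcm.

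Among other core proteins of known roles, RPL10, which joins late and completes the 60S subunit, and RPL38, known from selective translation of Hox mRNAs in mice, followed the group with 0.14, 0.14 and -0.24 and with 0.17, 0.15 and -0.15. Without control library 2, RPL10 came to 0.094 and 0.093 in the chick media (adjusted p = 0.398 and 0.323) and RPL38 to 0.091 in E8-cDRGcm (adjusted p = 0.278). Without E8-cDRGcm library 2, RPL10 came to 0.087 there (adjusted p = 0.315). RPL10A fell by 0.35 in E15.5-mSGcm and rose by 0.15 in E8-cSGcm. RPL36 rose by 0.25 and 0.27 and fell by 0.20, a fall that turned to 0.035 with the GC content and length correction (adjusted p = 0.65) and came to -0.13 without control library 1 (adjusted p = 0.174). RPL8, a protein of the peptidyl transferase region, had 1266 and 1261 CPM in control medium and 1018 and 998 in E15.5-mSGcm. It fell there by 0.33 (adjusted p = 1.35e-06), and with the GC content and length correction the value was -0.091 (adjusted p = 0.0938). RPL3, which shapes the peptidyl transferase centre, rose by 0.18 and 0.13 in the chick media and gave -0.05 in the mouse medium (adjusted p = 0.433).

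Of the small subunit, RPS27A, made as a fusion with ubiquitin, rose by 0.14 and 0.21 and fell by 0.20. RPSA, also known as the laminin receptor, rose by 0.16 and 0.19 and fell by 0.21. RPS19, mutated in Diamond-Blackfan anemia, rose by 0.14 and 0.19 and gave -0.04 in E15.5-mSGcm (adjusted p = 0.582). Of these, RPS27A came to 0.091 in E8-cSGcm without control library 2 (adjusted p = 0.399), RPSA to 0.083 in E8-cDRGcm without E8-cDRGcm library 2 (adjusted p = 0.405), and RPS19 to 0.073 in E8-cSGcm without E8-cSGcm library 2 (adjusted p = 0.423). The GC content and length correction brought RPS19 in E8-cSGcm to 0.089 (adjusted p = 0.14). RPS6, the target of S6 kinase, had 460 and 410 CPM in control medium, 452 and 532 in E8-cSGcm, 421 and 466 in E8-cDRGcm and 394 and 381 in E15.5-mSGcm. The control and chick libraries of RPS6 overlapped, and none of its 3 values passed (adjusted p = 0.113, 0.788 and 0.138). RPS26 was read too little for a firm value, with 42 and 79 counts in control medium and 21 and 19 in E15.5-mSGcm. Its log2 fold change of -0.81 (adjusted p = 0.0261) became -0.42 without control library 2 (adjusted p = 0.406).

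RPS27, a zinc finger protein of the small subunit, showed the largest rise of all members in both chick media. It had 5.96 and 6.58 CPM in control medium, 10.02 and 11.6 in E8-cSGcm, 10.8 and 13.7 in E8-cDRGcm and 6.53 and 7.88 in E15.5-mSGcm. Both chick media lay above control and mouse medium, whose libraries overlapped. The log2 fold changes were 0.79 ± 0.16 (adjusted p = 0.000208) and 0.96 ± 0.16 (adjusted p = 3.19e-06), and 0.20 in E15.5-mSGcm (adjusted p = 0.44). These rest on 51 to 187 reads per library, since 85.3% of the reads of RPS27 and its 29 pseudogene rows were listed under pseudogenes. With those reads added, the values became 0.24, 0.17 and 0.03 and RPS27 no longer passed a fold change of 1.5.

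Adding each gene's processed pseudogenes to its own reads changed the group little. The numbers called became 48 higher for E8-cSGcm, 37 higher for E8-cDRGcm and 45 lower for E15.5-mSGcm, with medians of 0.15, 0.13 and -0.15. It also gave values for RPS18, a protein of the 40S head, which rest on its pseudogene rows alone. These were 0.26 (adjusted p = 0.00114), 0.17 (adjusted p = 0.019) and -0.25 (adjusted p = 0.00327). RPL7A likewise gave 0.14, 0.07 and -0.16, of which the first and last passed (adjusted p = 0.0234 and 0.0143). A read listed under a pseudogene may have come from the gene or the copy, which these counts cannot tell apart.

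The paralogs differed from one another. RPL39L, a relative of RPL39 known from testis and some cancers, had 21.0 and 22.8 CPM in control medium, 24.8 and 28.85 in E8-cSGcm, 31.6 and 32.7 in E8-cDRGcm and 17.7 and 14.4 in E15.5-mSGcm. The 4 media did not overlap. RPL39L rose by 0.29 (adjusted p = 0.023) and 0.55 (adjusted p = 1.07e-05) and fell by 0.46 (adjusted p = 0.00254). The first became 0.17 without E8-cSGcm library 2 (adjusted p = 0.333) and the last -0.32 without E15.5-mSGcm library 2 (adjusted p = 0.12). It was the only member called higher in E8-cDRGcm than in E8-cSGcm (0.26, adjusted p = 0.0354). Its parent RPL39, at 36.6 and 33.7 CPM in control medium, gave 0.11 and 0.10 in the chick media and fell by 0.31 in the mouse medium. E15.5-mSGcm against E8-cDRGcm gave -1.01 ± 0.12 for RPL39L (adjusted p = 1.63e-09), the largest difference of any member there.

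RPL22L1, which can replace RPL22 in the ribosome, had 21.4 and 20.3 CPM in control medium and 26.1 and 27.9 in E8-cSGcm, a rise of 0.38 (adjusted p = 0.00258), and gave 0.19 and -0.02 in the other media. RPL36AL rose by 0.22 in E8-cSGcm (adjusted p = 0.0016). RPL26L1 fell by 0.29 in E8-cDRGcm (adjusted p = 0.0342), or by 0.17 without E8-cDRGcm library 1 (adjusted p = 0.332), where RPL4, RPL13A and RPL15 were the others lower, by 0.19, 0.17 and 0.12. With pseudogene reads added, the values in E8-cDRGcm were -0.04 for RPL13A (adjusted p = 0.538) and -0.11 for RPL15 (adjusted p = 0.0682), which no longer passed. RPL4 gave -0.19 (adjusted p = 0.000972). RPL15 lies outside the rule for named genes and was named after its value was seen.

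The 3 members that rose in E15.5-mSGcm were RPL22, RPL7L1 and RPS27L. RPL22 had 72.1 and 73.1 CPM in control medium and 84.6 and 82.0 in E15.5-mSGcm, a log2 fold change of 0.20 (adjusted p = 0.0161). RPL7L1, an assembly factor related to RPL7, went from 48.6 and 47.0 to 58.0 and 53.1 CPM, a change of 0.22 (adjusted p = 0.0296). RPS27L, a paralog of RPS27, went from 41.3 and 43.6 to 50.5 and 49.0 CPM, a change of 0.23 (adjusted p = 0.0237). In all 3 genes both mouse medium libraries lay above both control libraries. None of the 3 passed with DESeq2, with genes kept at 1 count in total or without control library 1, and RPL22 gave 0.06 with its pseudogenes added (adjusted p = 0.426). The GC content and length correction brought RPL22 to 0.11, RPL7L1 to 0.13 and RPS27L to 0.12, and none of them passed (adjusted p = 0.191, 0.203 and 0.259).

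Transcript features were set beside these values. The tested members have a median canonical transcript of 895 bases, against 2866 for all protein-coding genes, and a median GC content of 47.2% against 49.2%. Of the tested members with a window, 43 had a C and at least 4 pyrimidines at the annotated start and 20 did not. In E8-cSGcm, E8-cDRGcm and E15.5-mSGcm the first set had medians of 0.14, 0.14 and -0.18, and the second 0.14, 0.09 and -0.14. The second set is not free of pyrimidine runs, as RPL19 and RPL36AL have runs of 12 bases across the start. Of the 68 members with a window, 56 (82.4%) had a run of at least 7 within the 30 bases around a start. Of the 3 genes that rose in E15.5-mSGcm, RPL22 has the run at its start and RPL7L1 and RPS27L do not.

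Genes of related function were taken from lists. Other TOP mRNAs (19 of 22 tested), translation factors and RNA-binding proteins known to carry the tract, had medians of 0.07, 0.04 and -0.02, with 5 higher and 1 lower in E8-cSGcm, 5 and 4 in E8-cDRGcm, and 2 and 4 in E15.5-mSGcm. The shares were 26.3 and 5.26%, 26.3 and 21.1%, and 10.5 and 21.1%, against 16.1 and 15.2%, 24.8 and 24.7%, and 17.8 and 20.0% of all tested genes, so in E8-cDRGcm and for the genes lower in E15.5-mSGcm they lay near that background. Within the list, RACK1, a scaffold on the 40S subunit, rose by 0.25 and 0.27 in the chick media, and FAU, which encodes a ribosomal protein fused to a ubiquitin-like sequence, gave 0.14, 0.12 and -0.02. VIM, an intermediate filament gene, rose by 0.49 and 0.68. EIF3F, a subunit of initiation factor eIF3, fell by 0.24 and 0.39 in the chick media and rose by 0.17 in E15.5-mSGcm. EEF1B2, EEF1D and EEF1G were listed at 0 in all libraries.

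Ribosome biogenesis genes, which make and assemble the subunits (52 of 54 tested), had medians of -0.02, -0.16 and -0.15. In E8-cSGcm 8 were higher and 8 lower (15.4% each), close to the 16.1 and 15.2% of all tested genes. In E8-cDRGcm 7 were higher and 28 lower (13.5 and 53.8%, against 24.8 and 24.7%), and in E15.5-mSGcm 3 and 26 (5.77 and 50.0%, against 17.8 and 20.0%). The difference from the ribosomal protein genes was not tested. EFL1, a GTPase that frees the new 60S subunit, rose by 0.55 and 0.72 in the chick media, while UBTF, a factor of rDNA transcription, fell by 0.51 and 0.88. In E15.5-mSGcm RRP9, an snoRNP protein, fell by 0.72 and RIOK1, a kinase of 40S maturation, rose by 0.53. Mitochondrial ribosomal protein genes (74 of 78 tested) gave 8 higher and 10 lower, 13 and 27, and 1 and 23, with medians of 0.04, -0.09 and -0.14. Their shares were 10.8 and 13.5% in E8-cSGcm, both below those of all genes, 17.6 and 36.5% in E8-cDRGcm, and 1.35 and 31.1% in E15.5-mSGcm. Among those that passed, the widest changes were MRPS14 in E8-cDRGcm, which fell by 0.84, and MRPS6 in E15.5-mSGcm, which rose by 1.02.

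Regulators of mTOR and TOP translation (19 tested) had medians of 0.02, 0.02 and 0.01, with 4 higher and 5 lower in E8-cSGcm, 7 and 6 in E8-cDRGcm, and 5 and 5 in E15.5-mSGcm. As shares these were 21.1 and 26.3%, 36.8 and 31.6%, and 26.3 and 26.3%, and each lay somewhat above the share of all genes, a difference of few genes that was not tested. EIF4EBP1, the repressor of cap-dependent initiation that mTOR switches off, had 252 and 246 CPM in control medium, 395 and 412 in E8-cSGcm, 401 and 431 in E8-cDRGcm and 201 and 199.9 in E15.5-mSGcm. The 4 media fell into 3 separate ranges, and the gene rose by 0.70 and 0.74 and fell by 0.31. SESN2, an mTORC1 inhibitor sensitive to leucine, fell by 0.45 in E8-cSGcm and by 1.00 in E15.5-mSGcm. TFEB, a lysosomal transcription factor, rose by 1.06 in E8-cDRGcm and 0.71 in E15.5-mSGcm. Only transcript levels were measured, and translation was not.

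**Figure D5:**
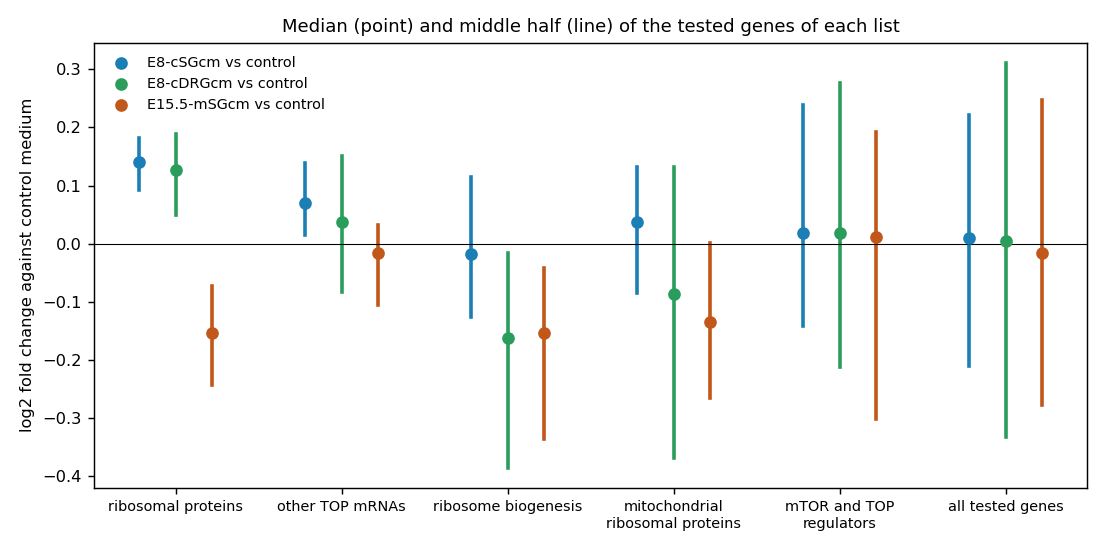
Median (points) and interquartile range (lines) of the log2 fold change against control medium (y axis) for the tested genes of each list (x axis), in the 3 conditioned media. The ribosomal proteins lie at 0.14, 0.13 and -0.15, and the ribosome biogenesis genes at -0.02, -0.16 and -0.15.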

How the data were processed

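Whole RNA-seq was measured in 8 libraries of IGR-N91 aggregates. The authors prepared stranded total RNA libraries from 50 ng of RNA, sequenced single reads of 75 bases, and deposited raw counts of reads per Ensembl gene, with no normalization or filter. The submitters' processing notes name bcl2fastq 2.17.1.14, cutadapt 1.9.1, TopHat2 2.1.0, HTSeq 0.11.3 and the build hg38 (GRCh38), whereas the paper's text names an older build. No gene coordinates were taken from the counts. The strand setting, multi-mapping rule and annotation release are not given in the sources used here. They decide how reads of a gene and its near-identical copies are divided.

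Symbols and transcript length and GC content came from GENCODE release 44 (58611 of 60676 genes matched), and start sequences from RefSeq. Library sizes were scaled by TMM, and all 8 libraries entered 1 robust quasi-likelihood fit in edgeR 4.0.16 under R 4.3.3, after filterByExpr, with Benjamini-Hochberg adjustment over 16680 genes. Genes were called at an adjusted p under 0.05, with or without a fold change of 1.5. SE is the log2 fold change divided by the root of F.

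The members, lists and tests were chosen with earlier results of these data known. Genes named are the 3 highest and 3 lowest core members per medium, all paralogs, up to 6 with opposite directions in 2 media, the 5 highest and 5 lowest per kilobase, 19 members of known roles and, of each other list, the highest and lowest called per medium with FAU and RACK1. Some of these genes are not reported here. Alternatives were DESeq2 1.42.0, RLE size factors, TMM without the members, other filters, the replicate block, GC content and length splines, thinning, sums with pseudogenes, fits of only the libraries compared and leaving out each library. The scripts were tested on simulated data. Figures were drawn with matplotlib.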

Additional observations from a re-analysis of the deposited data

Results flagged for a closer look

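Processed pseudogenes of the ribosomal protein genes, which are not among the 85 genes compared, held reads above the control level in E8-cSGcm. The lowest E8-cSGcm library had 0.709% of its counts in them, and the highest control library 0.676%. They held a near constant 32.2 to 33.2 reads per 100 reads of the genes in every library.

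In 29 genes (37.2% of those tested, against 6.53% of all genes) the call was higher in a chick medium and lower in E15.5-mSGcm. Both directions were read against the same 2 control libraries. These genes also passed between the media, which their choice by opposite calls made all but certain and which therefore adds no support. The log2 differences of E15.5-mSGcm from E8-cSGcm for RPLP0, RPL12, RPL41 and RPL39L were -0.53, -0.60, -0.85 and -0.75.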

How the results depend on the processing

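Directions of the 3 group medians held under all alternatives. The median of E15.5-mSGcm moved to -0.21 with genes kept at 1 count in total, where the median of all genes moved to -0.07. Numbers of members called moved by over 1.5 times as follows, and the cause was not tested. With DESeq2, E8-cSGcm had 20 higher, E8-cDRGcm 1 lower, E15.5-mSGcm 0 higher and 0 lower by 1.5-fold, E8-cDRGcm against E8-cSGcm 0 higher and 4 lower, and E15.5-mSGcm 1 higher than each chick medium. With GC content and length offsets, E15.5-mSGcm had 1 higher and 2 lower by 1.5-fold and E8-cDRGcm 1 lower by 1.5-fold. With those offsets and the replicate block, E8-cSGcm had 26 higher, E8-cDRGcm 1 lower by 1.5-fold, and E15.5-mSGcm 0 higher and 2 lower by 1.5-fold. With genes kept at 1 count, E15.5-mSGcm had 0 higher and 2 lower by 1.5-fold. Thinned, E8-cDRGcm had 2 lower and 2 higher by 1.5-fold. Summed with pseudogenes, no member passed 1.5-fold in any medium (0 in each). The shares of counts became 2.74, 2.63, 2.90, 3.06, 2.74, 2.89, 2.34 and 2.30% with pseudogenes added, in the order of control, E8-cSGcm, E8-cDRGcm and E15.5-mSGcm.

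Same-numbered libraries did not deviate together (correlations of -0.0437 to 0.042 over 16680 genes), so the numbers were not taken to pair them. The replicate block called 34, 35 and 45 members in E8-cSGcm, E8-cDRGcm and E15.5-mSGcm, all among the 40, 36 and 46 called without it.

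With each library left out in turn, medians ran from 0.10 to 0.17 in E8-cSGcm, 0.079 to 0.17 in E8-cDRGcm and -0.21 to -0.13 in E15.5-mSGcm. Numbers higher and lower ran from 9 to 41 and 0 to 1, from 14 to 38 and 1 to 6, and from 0 to 3 and 25 to 48 in the same order. By 1.5-fold, they ran from 1 to 1 and 0 to 1, from 1 to 2 and 0 to 1, and from 0 to 0 and 1 to 2. Between media, E8-cDRGcm against E8-cSGcm gave 0 to 2 higher and 2 to 10 lower. E15.5-mSGcm gave 0 to 2 higher and 52 to 61 lower than E8-cSGcm, of which 2 to 4 by 1.5-fold, and 1 to 3 higher and 50 to 60 lower than E8-cDRGcm, of which 2 to 6 by 1.5-fold.

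Of 1580 alternative values for named members that passed, 1373 stayed past the threshold, 203 no longer passed and 4 turned: in E15.5-mSGcm, with the GC content and length offsets RPLP2 became 0.021 with or without the block, and RPL36 0.035 without it and 0.036 with it. Of 1060 for named members that had not passed, 45 passed and 63 changed sign, of which 0 passed. Changes near 10% in 2 libraries per group are limited by depth for members with few reads, and also by the spread between replicates. The chi-square of replicate counts against library totals was 4.72 per member in control medium and 8.46 in E8-cSGcm. It was 8.4 in E8-cDRGcm and 1.72 in E15.5-mSGcm. Per gene over all genes it was 2.72, 3.2, 3.95 and 1.87 in the same order. Where replicates differ beyond counting error, this value grows with the number of reads. Members and all genes, and deep and shallow libraries, were therefore not compared by it at like depth. The 2 libraries of a group thus differed by more than counting error.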
